A study of Mus musculus with 8 samples.

Results

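The collagen chain genes are the mouse genes that code for the alpha chains of collagen, named Col with a type number, the letter a and a chain number. Matching that form to the gene symbols of the deposited table gave 44 of its 23930 genes. They were read in the tibialis anterior, a fast-twitch shin muscle, in 8 libraries. The 4 KO libraries came from inducible HSA-Cre/Lox-SDHC mice, in which a Cre driven by the human skeletal actin promoter removes a floxed Sdhc, a subunit of succinate dehydrogenase (respiratory complex II), from skeletal muscle fibres. The 4 WT libraries came from littermates that carried HSA-Cre and no floxed allele. Both groups received tamoxifen when 12 weeks old, and the muscle was collected 20 weeks after that. The promoter acts in muscle fibres, so endothelial cells, fibroblasts and the other cells of the tissue keep an intact Sdhc in KO mice as in WT mice. The strain is given as C57BL/6 for WT and as C57BL/7 for KO 1 and C57BL/8 for KO 2 to KO 4, while the husbandry text names C57/B6 for all mice. Nothing in the labels says that the libraries are from separate animals, so the p-values rest on the spread between libraries, which may be partly technical. Xist, transcribed from the inactive X, was high in KO 4 and WT 1 only. The libraries of a group were therefore not all from the same animal.

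Collagen molecules are helices of alpha chains wound around each other, and the classes differ in what the molecules build. Fibrillar collagens (types I, II, III, V, XI, XXIV and XXVII) form the striated fibres of tendon and of the sheets around muscle fibres and fascicles, where fibroblasts make most of them. Type IV chains form the network of basement membranes, which coat every muscle fibre and capillary. Type VI chains form beaded microfibrils beside the basement membrane, and their loss causes congenital muscular dystrophy in humans. The multiplexins, types XV and XVIII, link basement membranes to the fibres outside them. FACITs are collagens with interrupted helices that sit on fibrils or at tissue borders.

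Col4a1 and Col4a2, whose chains assemble together, lie head to head on chromosome 8 and share a promoter region. Their promoter windows (RefSeq, GRCm38.p6, 250 bases before to 50 after each start) are shown because Col4a1 gave the smallest p among the collagens with higher values in KO. Both are written 5′ to 3′ on the strand of their own gene, Col4a1 at chr8:11312777-11313076 on the minus strand and Col4a2 at chr8:11312555-11312854 on the plus strand. The capitals mark the 78 bases that both windows contain, each read on its own strand.
Col4a1: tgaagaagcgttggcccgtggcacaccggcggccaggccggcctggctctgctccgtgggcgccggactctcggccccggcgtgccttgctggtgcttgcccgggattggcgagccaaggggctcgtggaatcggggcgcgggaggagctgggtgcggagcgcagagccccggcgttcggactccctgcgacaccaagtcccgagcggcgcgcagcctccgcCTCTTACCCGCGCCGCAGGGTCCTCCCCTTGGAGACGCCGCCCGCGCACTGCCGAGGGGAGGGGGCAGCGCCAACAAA
Col4a2: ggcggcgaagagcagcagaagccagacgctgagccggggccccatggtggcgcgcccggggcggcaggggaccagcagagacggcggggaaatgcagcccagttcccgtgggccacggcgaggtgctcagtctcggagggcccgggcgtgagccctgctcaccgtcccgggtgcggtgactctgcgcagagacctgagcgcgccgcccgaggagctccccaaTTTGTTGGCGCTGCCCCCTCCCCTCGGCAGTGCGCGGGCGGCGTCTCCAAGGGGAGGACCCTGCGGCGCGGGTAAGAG

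The start sites lie 21 bases apart, and G and C make up 74.0% of the Col4a1 window and 73.7% of the Col4a2 window. Both windows hold the GC box GGGCGG, searched on both strands. Both also hold the letters CCAAT of the CCAAT box, and both hold GCGTG, one form of the hypoxia response core. Neither holds the TATA box letters TATAAA, and neither holds the other form of the core, ACGTG. Promoter windows were given for 35 collagens (38 windows). The GC box was found in 60.5% of the collagen windows and in 35.7% of all 32851 windows. CCAAT was found in 34.2% of collagen windows and 37.4% of all, GCGTG in 26.3% and 32.4%, ACGTG in 13.2% and 19.6%, and TATAAA in 13.2% and 13.6%. The letters CGTG are common to ACGTG and GCGTG, and a match is a run of letters, not a shown binding site.

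Each gene was measured through 1 amplicon, as reads per 1000000 reads of its library (RPM), so a level can be compared between libraries but not closely between genes, whose amplicons can differ in efficiency. The 8 libraries held 4774602 to 7281574 reads, and 3 reads, the floor used here, were worth 0.412 to 0.628 RPM. Sdhc, the targeted gene, stood at 17.1, 14.5, 22.8 and 49.4 RPM in KO 1 to KO 4, against 574, 693, 795 and 722 RPM in WT 1 to WT 4 (two-sided exact permutation test, p = 0.0286, the lowest value possible with 4 against 4). The sources used here do not give the segment of Sdhc that the amplicon reads. Markers of muscle fibres, 8 genes such as Acta1 and Tnnt3, summed to between 89663 and 137759 RPM in KO and between 112550 and 161695 RPM in WT. The mean sums were 115351 ± 19800 RPM in KO and 140883 ± 21344.5 RPM in WT (SD, n = 4 each). In the limma test described below, all 8 had a log2 fold change of KO over WT below 0. Their median was -0.27, and the smallest adjusted p was 0.208. Xist, which is transcribed from the inactive X, reached 98.9 RPM in KO 4 and 77.3 RPM in WT 1 and at most 0.334 RPM elsewhere. Scaling factors from the trimmed mean of M values (TMM), which correct for a few abundant genes, were highest in KO 3 (1.14) and lowest in WT 3 (0.898).

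The test was limma on log2(RPM + 1), over the 11087 genes that reached 1 RPM in 4 or more libraries. A gene is said to pass the test where its Benjamini-Hochberg adjusted p over all of them was under 0.05. On this scale 70.0% of all genes tested had a log2 fold change of KO over WT above 0, with a median of 0.13. Fold changes are given below relative to that median. The p-values, and the counts of genes higher or lower in KO, refer to the fold change before the median was subtracted. A relative value near 0 can therefore differ in sign from the change tested, as for Col1a2 (0.07 before, -0.06 after). With TMM factors the median was 0.0058. For genes with few reads, log2(RPM + 1) shrinks the change.

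Of the 44 collagens, 28 were tested. Col22a1, a FACIT of the muscle-tendon junction, passed as lower in KO, and no collagen passed as higher. Over all genes tested, 0.523% passed as higher and 0.28% as lower. At an unadjusted p under 0.05, 7 collagens (25.0%) were higher in KO, where 13.1% of all genes were, and 3 (10.7%) were lower, where 3.07% of all genes were. With TMM factors these counts were 2 higher (7.14%, against 6.14% of all genes) and 3 lower (10.7%, against 7.17%). On read counts recovered from the RPM values, edgeR passed 0 collagens as higher (0.334% of all genes) and 1 as lower (0.496%), and DESeq2 0 as higher (0.749%) and 3 as lower (1.42%). With TMM factors 0 passed as higher (0.352%) and Col22a1 as lower (0.586%). A term for Xist passed Col4a1 as higher (1.49%) and Col22a1 as lower (0.631%). The 6 libraries without Xist passed 0 as higher (2.28%) and 2 as lower (1.34%), Col22a1 and Col9a1. The groups did not overlap in 3 collagens with higher KO values (Col4a1, Col3a1 and Col28a1), against 7.5% of all genes, and in 2 with lower KO values (Col22a1 and Col12a1), against 1.61%. With TMM factors this held for 1 with higher values, Col28a1 (all genes 3.55%), and for the same 2 with lower values (all genes 3.69%). Col28a1, which is among the 7 and the 3 higher collagens above, entered the test through its KO values alone, so its place in these counts is in part fixed by the filter.

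**Figure D1:**
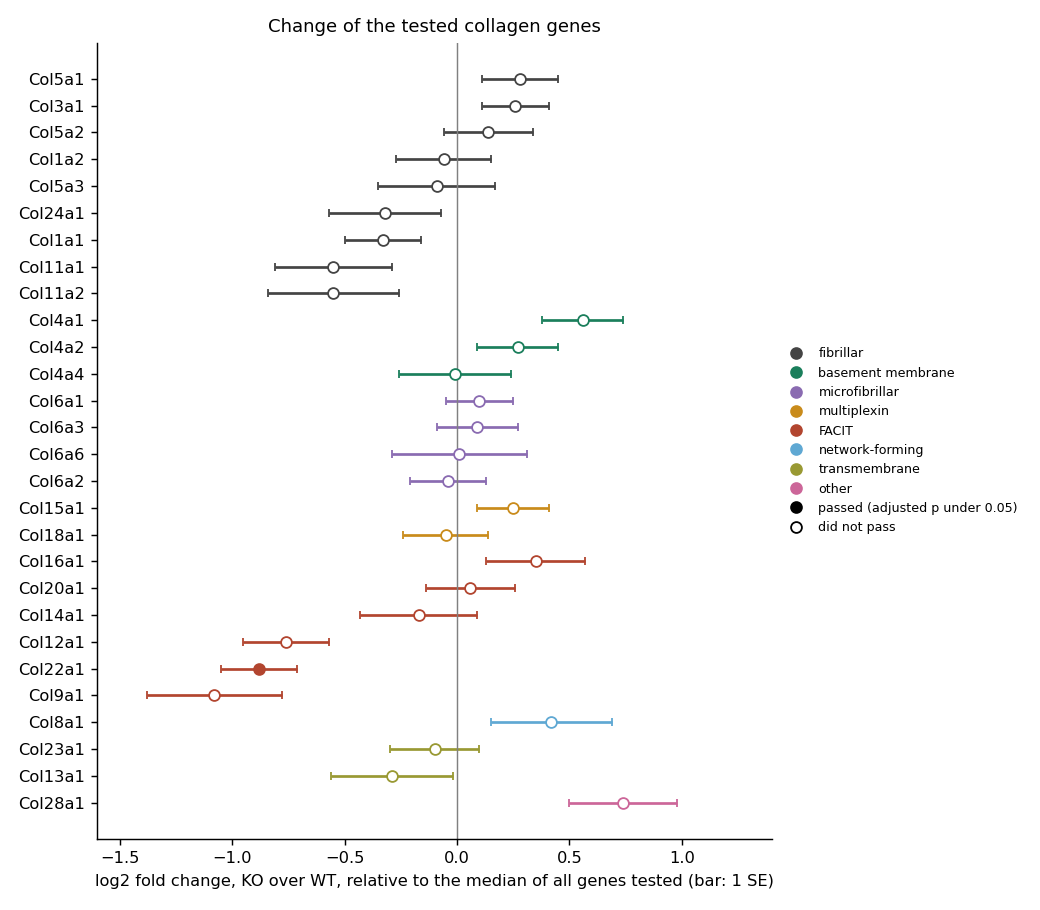
Log2 fold change of KO over WT for the 28 tested collagens, relative to the median of all genes tested, with bars of 1 SE and colours by class. The filled point is Col22a1 at -0.88, the gene that passed, and the basement membrane gene Col4a1 lies at 0.56.

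The classes differed in their medians, without a test of that difference, and their ranges overlapped. The median relative log2 fold change was 0.27 for the 3 tested basement membrane chains, 0.10 for the 2 multiplexins, 0.05 for 4 microfibrillar chains and -0.09 for 9 fibrillar chains, against 0 for all genes by construction and -0.02 for all 28 collagens. The 6 tested FACITs had a median of -0.46. The range within a class was wide, from -0.55 (Col11a1, Col11a2) to 0.28 (Col5a1) among the fibrillar chains and from -1.08 (Col9a1) to 0.35 (Col16a1) among the FACITs. It was narrow in the type VI chains, from -0.04 to 0.10. The basement membrane chains ran from -0.01 (Col4a4) to 0.56 (Col4a1), and their median is the value of Col4a2. The multiplexins ran from -0.05 (Col18a1) to 0.25 (Col15a1).

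Summed over its 6 genes, the basement membrane class held 301, 279, 445 and 393 RPM in KO 1 to KO 4, against 189, 259.6, 214 and 243 RPM in WT 1 to WT 4. Every KO library lay above every WT library, and Col4a1 made up most of the sum. The 9 FACITs summed to 28.3, 29.5, 40.3 and 40.7 RPM in KO and to 52.0, 56.6, 52.6 and 47.4 RPM in WT. Here every KO library lay below every WT library, and Col22a1 made up much of the sum. The fibrillar class averaged 479 ± 121 RPM in KO and 467 ± 41.1 RPM in WT (SD, n = 4 each), a difference of 12.0 RPM that was inside the spread and was -33.3 RPM with TMM factors. The microfibrillar class averaged 205 ± 30.2 RPM in KO and 178 ± 28.0 RPM in WT, and the multiplexins 70.4 ± 14.6 RPM in KO and 54.6 ± 6.95 RPM in WT (SD, n = 4 each). In both of these the groups overlapped, and with TMM factors the differences shrank to 8.57 RPM for the microfibrillar class, against 26.9 RPM without them, and to 9.76 RPM for the multiplexins, against 15.8 RPM. All collagens together took 0.0966%, 0.0939%, 0.141% and 0.132% of reads in KO 1 to KO 4, against 0.0986%, 0.110%, 0.0900% and 0.0967% in WT 1 to WT 4.

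**Figure D2:**
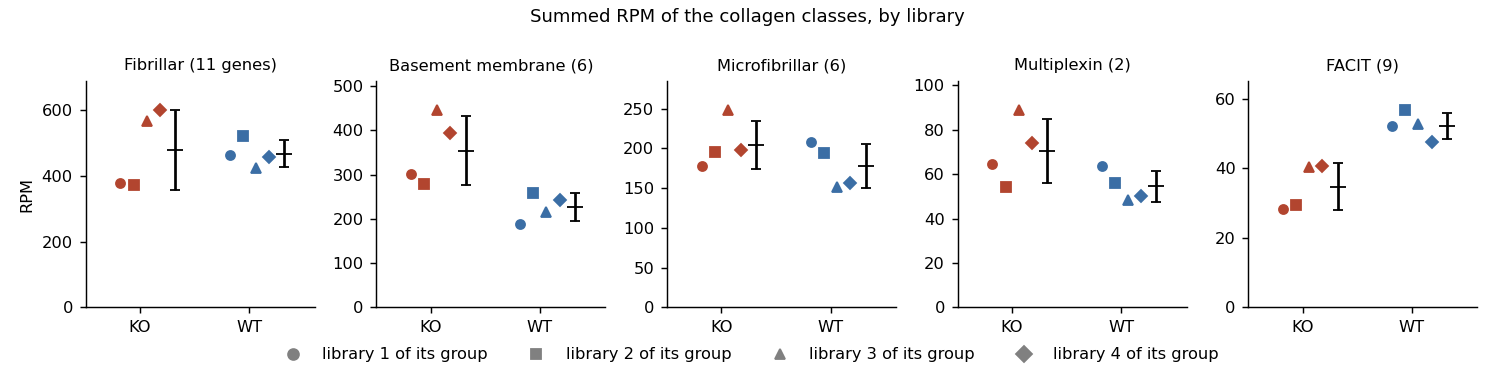
Summed RPM of 5 collagen classes in each library, KO left of WT, with the mean and 1 SD in black; the number of genes in each class is in brackets. The KO libraries lie above the WT libraries in the basement membrane class (means 355 and 227 RPM) and below them among the FACITs (34.7 and 52.2 RPM), and the groups overlap in the other classes.

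Among the basement membrane chains, Col4a1, which with Col4a2 forms the type IV molecule found in nearly all basement membranes, had 256, 239, 388 and 349.5 RPM in KO 1 to KO 4, against 139, 231, 179 and 215 RPM in WT 1 to WT 4. All KO values were above all WT values, though KO 2 exceeded WT 2 by little. The means were 308 ± 72.1 RPM in KO and 191 ± 40.7 RPM in WT (SD, n = 4 each), 1.61-fold, and the relative log2 fold change was 0.56 with an SE of 0.18 (limma, adjusted p = 0.0799). It passed when a term for Xist was added (adjusted p = 0.0466), and in the 6 libraries without Xist the value was 0.35 (adjusted p = 0.138, 3 libraries each). The KO 2 value rests on 1143 reads, with an exact binomial 95% interval of 226 to 254 RPM. The WT 2 value rests on 1381 reads, with an interval of 219 to 243 RPM. These intervals overlap, so the gap between KO 2 and WT 2 lay within counting error. With TMM factors the groups overlapped. Reads carry no molecular tags, so such intervals cover counting error only.

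Col4a2, its partner across the shared promoter, had 43.0, 37.5, 53.2 and 41.6 RPM in KO, against 48.1, 26.7, 33.8 and 26.6 RPM in WT. The groups overlapped because WT 1, the lowest library for Col4a1, was the second highest for Col4a2. Its relative log2 fold change was 0.27 with an SE of 0.18 (limma, adjusted p = 0.302). The ratio of Col4a1 to Col4a2 values was 5.94, 6.39, 7.30 and 8.40 in KO and 2.89, 8.63, 5.30 and 8.09 in WT, so the pair did not keep a fixed ratio between libraries. In GENCODE M21 (GRCm38), Col4a1 spans chr8:11198423-11312826 and Col4a2 chr8:11312805-11449287, and they overlap at their starts. The sources used here do not give the build of the panel.

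The other type IV chains make the networks of specialised basement membranes, such as those of the kidney and lung. Col4a4 had 0.821, 1.05, 2.68 and 0.961 RPM in KO, against 0.987, 1.67, 0.713 and 1.13 RPM in WT. These are a few reads a library, and the groups overlapped with KO 3 far above the rest (relative log2 fold change -0.01, limma adjusted p = 0.852). Col4a3, Col4a5 and Col4a6 fell below the filter.

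Endothelial markers were read beside the type IV chains. The 10 markers, among them Pecam1 and Cdh5, summed to 729, 688, 788 and 609 RPM in KO and to 478, 530.2, 417 and 581 RPM in WT, and none of the 10 was at 0 in all libraries. Of these 10, 7 had an unadjusted p under 0.05 as higher in KO, where 13.1% of all genes did, and 5 did with TMM factors (6.14% of all genes). In limma, edgeR and the fit with a term for Xist 0 passed, while in the 6 libraries without Xist Cdh5 (adjusted p = 0.0253) and Esam (0.0438) passed as higher, where 2.28% of all genes did. The sums did not overlap between the groups. Sparc, a basement membrane glycoprotein that binds type IV collagen, averaged 452 ± 70.3 RPM in KO and 292 ± 54.5 RPM in WT (SD, n = 4 each; relative log2 fold change 0.51, limma adjusted p = 0.0651). In bulk tissue, a change in the number of cells of a type and a change in RNA per cell cannot be told apart, and the part of endothelial cells in the Col4a1 values was not tested.

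**Figure D3:**
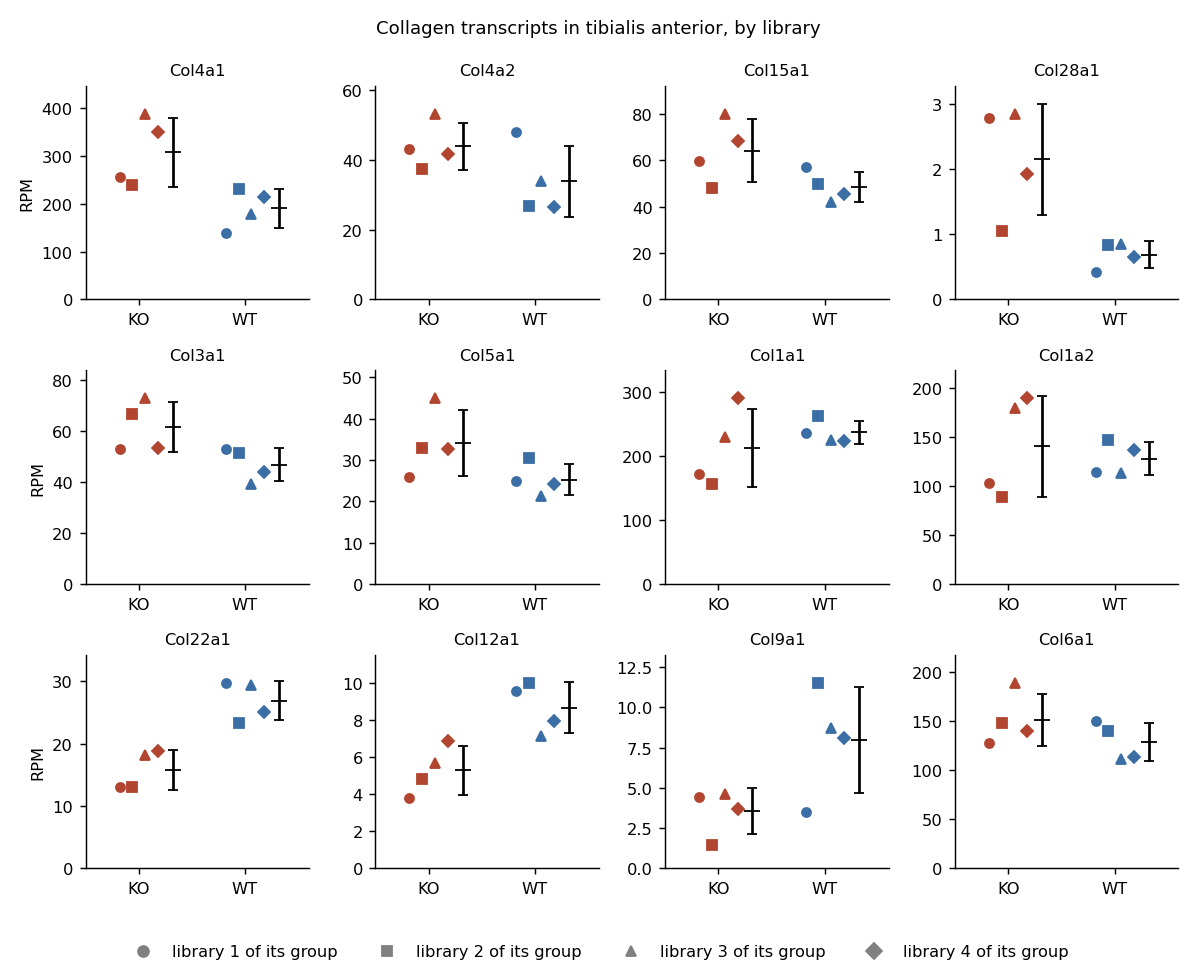
RPM of 12 collagens in each library, KO left of WT; symbols give the library number within its group, and black bars the mean and 1 SD. Col4a1, Col3a1 and Col28a1 have all KO values above all WT values, Col22a1 and Col12a1 have them below, and the groups overlap in the other 7.

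The fibrillar collagens did not move as 1 class. Col1a1 and Col1a2 code for the chains of type I collagen, the bulk collagen of tendon and of the sheath around muscle. Col1a1 had 173, 156, 229.7 and 291 RPM in KO 1 to KO 4, against 236, 264, 225 and 224 RPM in WT 1 to WT 4. KO 1 and KO 2 lay below every WT library and KO 4 above every one (relative log2 fold change -0.33 with SE 0.17, limma adjusted p = 0.577). Col1a2 had 103, 89.0, 179 and 189 RPM in KO, against 114, 147, 113 and 137 RPM in WT. It showed the same split, with KO 1 and KO 2 lowest and KO 3 and KO 4 highest (-0.06, SE 0.21, adjusted p = 0.902). The spread of type I values was therefore wider in KO (SD 61.2 RPM for Col1a1) than in WT (SD 18.3 RPM), a difference in spread that was not tested.

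Type III collagen, which mixes with type I in the softer sheaths around single fibres, is coded by Col3a1. It had 53.2, 66.6, 73.0 and 53.4 RPM in KO, against 52.9, 51.4, 39.4 and 43.9 RPM in WT. The groups did not overlap, but KO 1 and WT 1 were separated by under 1 RPM. The relative log2 fold change was 0.26 with an SE of 0.15 (limma, adjusted p = 0.234).

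Type V collagen lies inside type I fibrils and starts their assembly. Col5a1 had 26.0, 32.9, 45.0 and 32.7 RPM in KO, against 25.0, 30.4, 21.4 and 24.1 RPM in WT. KO 3 was highest and WT 3 lowest, and the groups overlapped at KO 1 and WT 2 (relative log2 fold change 0.28 with SE 0.17, limma adjusted p = 0.263). Its partner chain Col5a2 averaged 13.0 ± 4.07 RPM in KO and 10.3 ± 1.61 RPM in WT (value 0.14, adjusted p = 0.517), and Col5a3, the third type V chain, 10.1 ± 3.40 RPM in KO and 10.04 ± 4.43 RPM in WT (-0.09, adjusted p = 0.968; SD, n = 4 each). Col3a1 (chr1:45311538-45349706) and Col5a2 (chr1:45374321-45503282) are neighbours on opposite strands.

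The minor fibrillar chains had low values. Col11a1, best known from cartilage, had 1.31, 1.89, 1.96 and 4.94 RPM in KO and 3.10, 3.51, 3.85 and 3.24 RPM in WT. In 3 KO libraries it lay below every WT library and in KO 4 above every one (relative log2 fold change -0.55, limma adjusted p = 0.42). Col11a2 likewise was highest in KO 4, and the other 3 KO libraries were below every WT library (-0.55, adjusted p = 0.482). Col24a1, a chain of developing bone, had a relative value of -0.32 (adjusted p = 0.728). Col2a1, the main chain of cartilage fibrils, and Col27a1 fell below the filter.

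The ratio of Col4a1 to Col1a1 values was higher in KO, and since they are read through different amplicons, only its difference between libraries can be read, not its size. The ratio of Col4a1 to Col1a1 RPM was 1.48, 1.54, 1.69 and 1.20 in KO 1 to KO 4, against 0.590, 0.875, 0.794 and 0.958 in WT 1 to WT 4. Every KO ratio was above every WT ratio, and a ratio within a library does not depend on its scaling. It was chosen after the values were seen and is a description with no test. Col3a1 to Col1a1 gave 0.308, 0.427, 0.318 and 0.184 in KO and 0.224, 0.195, 0.175 and 0.196 in WT, where KO 4 lay among the WT libraries. The ratio of Col1a1 to Col1a2, whose chains enter type I collagen in fixed proportion, was 1.67, 1.75, 1.28 and 1.54 in KO and 2.07, 1.79, 1.997 and 1.64 in WT.

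Type VI collagen had the narrowest range of changes among the classes with 3 or more tested genes. Col6a1 had 128, 148, 189.5 and 140.4 RPM in KO, against 150.2, 140.2, 112 and 114 RPM in WT. The groups overlapped, with KO 3 highest and WT 3 lowest (relative log2 fold change 0.10 with SE 0.15, limma adjusted p = 0.467). Col6a2, which lies near Col6a1 on chromosome 10, had 27.6, 26.4, 27.1 and 34.1 RPM in KO and 32.4, 33.9, 21.5 and 21.9 RPM in WT. KO 4 and the first 2 WT libraries stood above the rest (-0.04, adjusted p = 0.832). Col6a3, the chain with the long globular arm, had 18.9, 18.01, 27.7 and 22.4 RPM in KO and 25.1, 17.7, 14.8 and 17.0 RPM in WT (0.09, adjusted p = 0.577). Col6a6, a later-found chain that can take the place of Col6a3, had 2.79, 2.51, 3.39 and 1.24 RPM in KO and 0.564, 2.50, 3.56 and 2.59 RPM in WT (0.01, adjusted p = 0.858). For both genes the groups overlapped. Col6a5 fell below the filter, and Col6a4 had 0 reads in every library.

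The multiplexins carry endostatin-like ends and long sugar chains. Col15a1, found at the basement membranes of muscle fibres and capillaries, had 59.8, 48.0, 80.1 and 68.4 RPM in KO, against 57.3, 49.8, 42.2 and 45.7 RPM in WT. Only KO 2 lay within the WT range (relative log2 fold change 0.25 with SE 0.16, limma adjusted p = 0.277). Col18a1, the source of endostatin, had 4.93, 6.28, 8.57 and 5.63 RPM in KO, against 6.49, 6.34, 5.99 and 4.70 RPM in WT. The groups overlapped (-0.05, SE 0.19, adjusted p = 0.869). Whether the 2 multiplexins differed from each other in their change was not tested.

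Col22a1 was the collagen that passed. It codes for type XXII collagen, a FACIT placed at the junction of muscle and tendon, where nuclei at the fibre ends transcribe it. It had 13.0, 13.0, 18.2 and 18.8 RPM in KO 1 to KO 4, against 29.8, 23.4, 29.4 and 25.1 RPM in WT 1 to WT 4. All KO libraries were below all WT libraries. The means were 15.7 ± 3.20 RPM in KO and 26.9 ± 3.16 RPM in WT (SD, n = 4 each), or 58.5% of WT. The relative log2 fold change was -0.88 with an SE of 0.17 (limma, adjusted p = 0.0473), which is close to the threshold. The KO 4 value rests on 137 reads, with an exact binomial 95% interval of 15.8 to 22.2 RPM. The WT 2 value rests on 140 reads, with an interval of 19.7 to 27.6 RPM. The gap between KO 4 and WT 2 lay within counting error. The gene spans chr15:71795795-72034227 on the minus strand (GENCODE M21, GRCm38), where Gm16308 overlaps it.

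Other tools passed Col22a1 too, with adjusted p = 0.0143 in edgeR and 0.000298 in DESeq2. It passed with TMM factors (0.0153), with a term for Xist (0.0214) and in the 6 libraries without Xist, where the value was -0.91 (0.0242). It did not pass with the replicate numbers as a block (0.0629), which do not pair the libraries, or with no filter on low values (0.0648). Leaving out 1 library at a time gave values between -0.96 and -0.80 with adjusted p between 0.022 and 0.168, and it passed in 1 of these 8 fits, the one without KO 4. It did not pass without KO 3 and WT 3 (adjusted p = 0.231), an omission chosen after the data were seen.

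The FACITs Col12a1 and Col9a1 also had lower values in KO without passing. Col12a1, which binds type I fibrils in tendon and muscle sheaths and is mutated in a human myopathy, had 3.78, 4.82, 5.71 and 6.87 RPM in KO, against 9.59, 10.02, 7.13 and 7.93 RPM in WT. The groups did not overlap (relative log2 fold change -0.76 with SE 0.19, limma adjusted p = 0.14, DESeq2 adjusted p = 0.0497). Col9a1, a chain of type IX collagen known from cartilage, had 4.44, 1.47, 4.64 and 3.71 RPM in KO, against 3.52, 11.5, 8.70 and 8.10 RPM in WT. WT 1 lay among the KO libraries, and without it Col9a1 passed (-1.08, SE 0.30, limma adjusted p = 0.152 with all libraries and 0.0271 without WT 1, where 0.573% of all genes passed as lower). In the 6 libraries without Xist its value was -1.41 (adjusted p = 0.0143), and in DESeq2 it also passed (adjusted p = 0.0216). Its partner chains Col9a2 and Col9a3 fell below the filter.

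The other FACITs did not follow these. Col16a1, a minor fibril-associated chain, had 1.81, 1.89, 2.50 and 2.47 RPM in KO and 1.55, 1.84, 0.855 and 0.972 RPM in WT. The groups overlapped by 1 library on each side, and the values rest on few reads (relative log2 fold change 0.35, limma adjusted p = 0.296). Col14a1, a fibril-associated chain of tendon and skin, had a relative value of -0.17 (adjusted p = 0.95), and Col20a1 one of 0.06 (adjusted p = 0.667).

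Tendon markers were lower in 2 KO libraries. The 8 markers summed to 112, 84.8, 182 and 252 RPM in KO 1 to KO 4, against 265, 271, 170.1 and 153 RPM in WT 1 to WT 4, so the groups overlapped. None of the 8 was at 0 in all libraries, and their median relative log2 fold change was -0.53, with 1 of 8 lower at an unadjusted p under 0.05, where 3.07% of all genes were (4 with TMM factors, where 7.17% were). Scx, the transcription factor that defines tendon cells, fell in KO, with 9.04, 5.45, 8.92 and 11.7 RPM against 21.2, 22.4, 18.5 and 16.7 RPM in WT libraries (relative log2 fold change -1.24, limma adjusted p = 0.0164). It did not pass without WT 2 (0.0602) or WT 3 (0.0592). It overlaps Bop1 on the other strand, and the sources used here do not give whether strand was used in counting. The libraries with the lowest tendon sums, KO 1 and KO 2, also had the lowest Col22a1, Col12a1, Col1a1, Col1a2, Col11a1 and Col11a2 values. KO 4 had a tendon sum of 252 RPM, near the 265 RPM of WT 1, and a Col22a1 value below every WT library. The ratio of Col22a1 to Fmod, another of the tendon markers, ran from 0.165 to 0.369 in KO and from 0.186 to 0.402 in WT. That of Col22a1 to Scx ran from 1.44 to 2.38 in KO and from 1.04 to 1.58 in WT. The groups overlapped in both ratios, which are a description with no test. The part of tendon tissue in the FACIT values was not tested.

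Markers of fibroblasts, the main source of fibrillar collagen, did not separate the groups. The 9 markers measured, among them Pdgfra and Dpt, summed to 741 ± 119 RPM in KO and 734 ± 87.5 RPM in WT (SD, n = 4 each). Of these, 1 (Cd34, which endothelial cells also express) was higher in KO at an unadjusted p under 0.05, where 13.1% of all genes were. In limma and edgeR 0 passed.

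**Figure D4:**
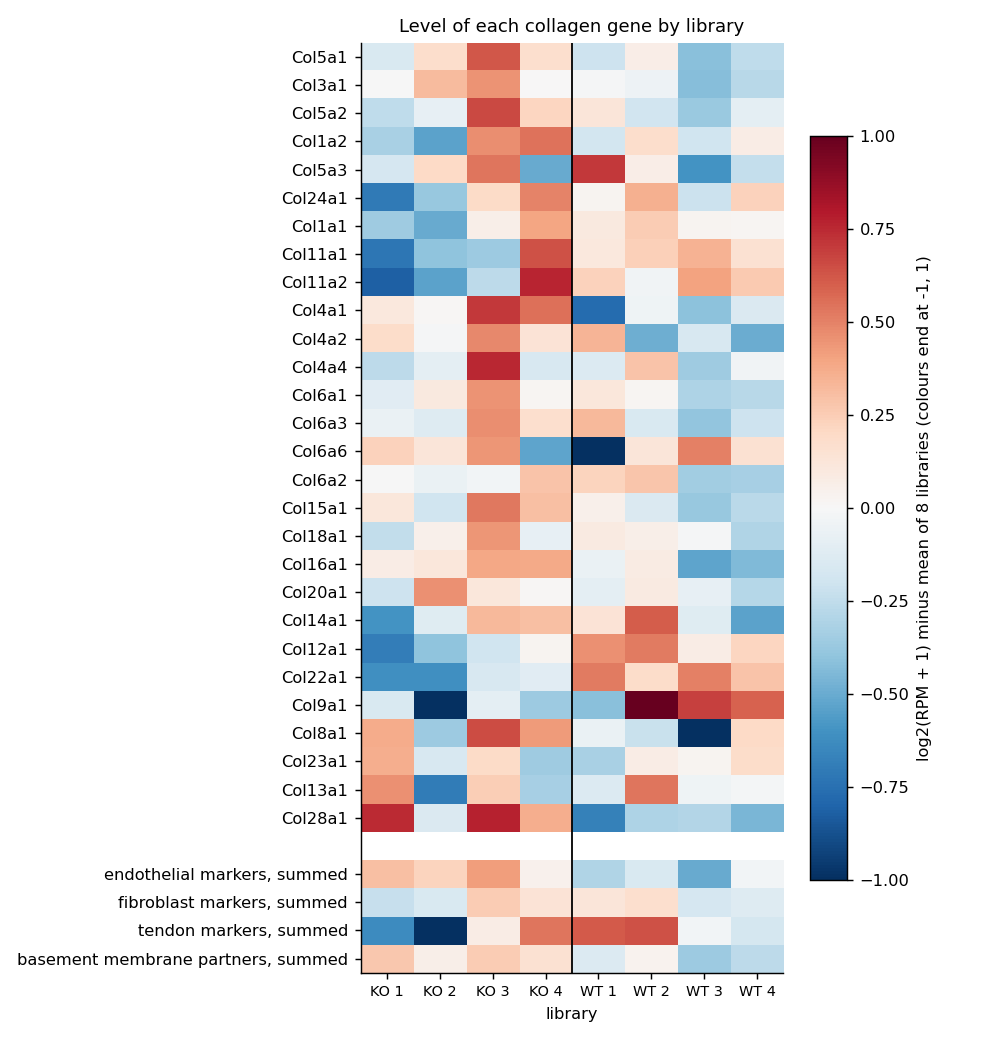
Level of each tested collagen in each library as log2(RPM + 1) minus its mean over the 8 libraries, with the KO libraries left of the line and genes grouped by class, and the summed level of 4 gene lists beneath. KO 3 is the highest library for 13 of the 28 genes and WT 3 the lowest for 11.

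The remaining classes held few measurable chains. Col28a1, a von Willebrand-domain collagen found in mice mainly around peripheral nerve, had 2.79, 1.05, 2.85 and 1.92 RPM in KO, against 0.423, 0.835, 0.855 and 0.648 RPM in WT. The groups did not overlap, but these are 5 to 17 reads in KO and 3 to 6 reads in WT, close to the floor. It passed the filter through its KO values alone, so its difference is in part fixed by the filter (relative log2 fold change 0.74 with SE 0.24, limma adjusted p = 0.101). Col8a1, a network-forming chain of vessel walls, averaged 3.62 ± 1.24 RPM in KO and 2.20 ± 1.001 RPM in WT (0.42, adjusted p = 0.335). The transmembrane chains had relative values of -0.29 for Col13a1, which sits at the neuromuscular junction (adjusted p = 0.79), and -0.10 for Col23a1 (adjusted p = 0.973; SD, n = 4 each).

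The 16 collagens that were not tested reached at most 1.48 RPM in any library. They are Col2a1 and Col27a1 (fibrillar), Col4a3, Col4a5 and Col4a6 (basement membrane), Col6a4 and Col6a5 (microfibrillar), Col9a2, Col9a3 and Col19a1 (FACIT), Col8a2 and Col10a1 (network-forming), Col7a1 (anchoring fibrils), Col17a1 and Col25a1 (transmembrane) and Col26a1. Col6a4 and Col17a1 had no read, which allows levels of up to 0.412 to 0.628 RPM in a library. At this depth no difference between the groups was detectable in these genes. In GENCODE, 18 of the 44 share bases with a gene on the opposite strand and 15 with one on their own strand.

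Libraries differed across the collagens in ways the groups alone do not give. KO 3 held the highest value of 13 of the 28 tested collagens (46.4%) and of 32.6% of all genes tested, and WT 3 the lowest of 11 (39.3%) and of 23.7% of all genes. With TMM factors KO 3 was highest in 8. Without KO 3 and WT 3, an omission chosen after the data were seen, no collagen passed in either direction. Over all genes 9 passed in that fit, against 89 with all libraries, and the relative log2 fold change of Col22a1 was -0.84.

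Genes that build, modify, cut and bind collagen were read in 8 lists with 71 tested genes, of which 1 passed as higher (P4ha1), where 0.523% of all genes did, and 0 as lower in limma. At an unadjusted p under 0.05, 11 were higher, where 13.1% of all genes were, and 1 was lower, where 3.07% were. P4ha1 codes for the main catalytic subunit of prolyl 4-hydroxylase, which uses oxygen and 2-oxoglutarate to hydroxylate collagen prolines and releases succinate, the substrate of succinate dehydrogenase. It had 47.6, 57.8, 85.5 and 54.9 RPM in KO, against 36.1, 28.7, 25.8 and 31.4 RPM in WT. All KO libraries were above all WT libraries (relative log2 fold change 0.84 with SE 0.17, limma adjusted p = 0.0165). Leaving out 1 library at a time, it passed in 6 of 8 fits, and not without WT 2 (adjusted p = 0.0602) or WT 3 (0.0855), nor without KO 3 and WT 3 (0.184). In the 6 libraries without Xist the value was 0.96 (0.00296).

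The other hydroxylases moved less. Plod1, a lysyl hydroxylase, averaged 52.8 ± 4.35 RPM in KO and 37.1 ± 3.39 RPM in WT (SD, n = 4 each), and the groups did not overlap (relative log2 fold change 0.37, limma adjusted p = 0.087). P4hb, the other subunit of prolyl 4-hydroxylase, had a relative value of 0.11 (adjusted p = 0.488) and Crtap, of the prolyl 3-hydroxylase complex, 0.16 (0.419). The median of the 14 tested genes of this list was -0.02. Among 8 chaperone and export genes the median was -0.07, and 0 had an unadjusted p under 0.05. Serpinh1, the collagen chaperone HSP47, stood at 0.05 (limma adjusted p = 0.652) and Fkbp10 at 0.23 (0.317). Mia3 and Tmem38b, which had the highest mean RPM of this list, stood at -0.15 (0.972) and -0.06 (0.891), and Creb3l1 at -0.47 (0.555). The 7 genes of propeptide processing had a median of -0.08, with Bmp1, the C-proteinase, at 0.18 (0.341). Of the same 7, Tll1 stood at 0.1 (0.667), Adamts2 at -0.08 (0.91) and Adamts14 at -0.24 (0.854).

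Among 11 laminins, nidogens and other basement membrane partners, 0 passed in limma, edgeR or with TMM factors, and Sparc passed in DESeq2 (adjusted p = 0.0499). In 5, Sparc, Lamb1, Nid2, Nid1 and Lama4, the groups did not overlap (7.5% of all genes) and the unadjusted p was under 0.05 (13.1%). With TMM factors the groups stayed apart in 2 of them, Lamb1 and Nid1 (3.55%). The list's median was 0.32. Of the 11, 3 lay below 0: Lamb2 at -0.4 (limma adjusted p = 0.492), Lama2 at -0.25 (0.768) and Lama5 at -0.21 (0.867). Lamb1, a laminin chain, averaged 20.1 ± 3.73 RPM in KO and 11.9 ± 2.49 RPM in WT (0.59, adjusted p = 0.0661), and Nid2, which bridges laminin and type IV networks, 17.9 ± 3.82 RPM in KO and 10.3 ± 1.71 RPM in WT (0.60, adjusted p = 0.0733; SD, n = 4 each). With a term for Xist, Sparc, Lamb1 and Nid2 passed as higher, where 1.49% of all genes did, and in the 6 libraries without Xist Lamb1 and Nid2 passed, where 2.28% did. Hspg2, the proteoglycan perlecan, stood at 0.08 (0.497), and the median of the list lay above the 0.27 of the type IV chains.

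Among 4 cross-linking enzymes, Pxdn, the peroxidase that joins type IV molecules by sulfilimine bonds, averaged 6.41 ± 2.25 RPM in KO and 3.38 ± 0.95 RPM in WT (SD, n = 4 each; relative log2 fold change 0.61, limma adjusted p = 0.14). The lysyl oxidases, which cross-link fibrils, lay below 0, with Lox at -0.26 (0.745) and Loxl1 at -0.36 (0.556). Of 8 degradation genes, the gelatinase Mmp9 was at -0.87 (0.286) on 1 to 32 reads a library, and the inhibitor Timp3 at 0.24 (0.181). The inhibitors Timp2 and Timp4 stood at -0.25 (0.671) and 0.21 (0.498). Of 7 receptors, the integrin chain Itga1 stood at 0.24 (0.315), the collagen-binding receptor Lair1 at 0.46 (0.268) and the tyrosine kinase Ddr1 at -0.54 (0.311). The integrin chain Itgb1 stood at -0.05 (0.796). In the last list, 12 fibril partners and TGF-beta genes, Tgfb1 stood at 0.34 (0.209), Tgfb2 at -0.46 (0.319), Tgfb3 at -0.51 (0.401) and decorin (Dcn) at 0.05 (0.618).

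**Figure D5:**
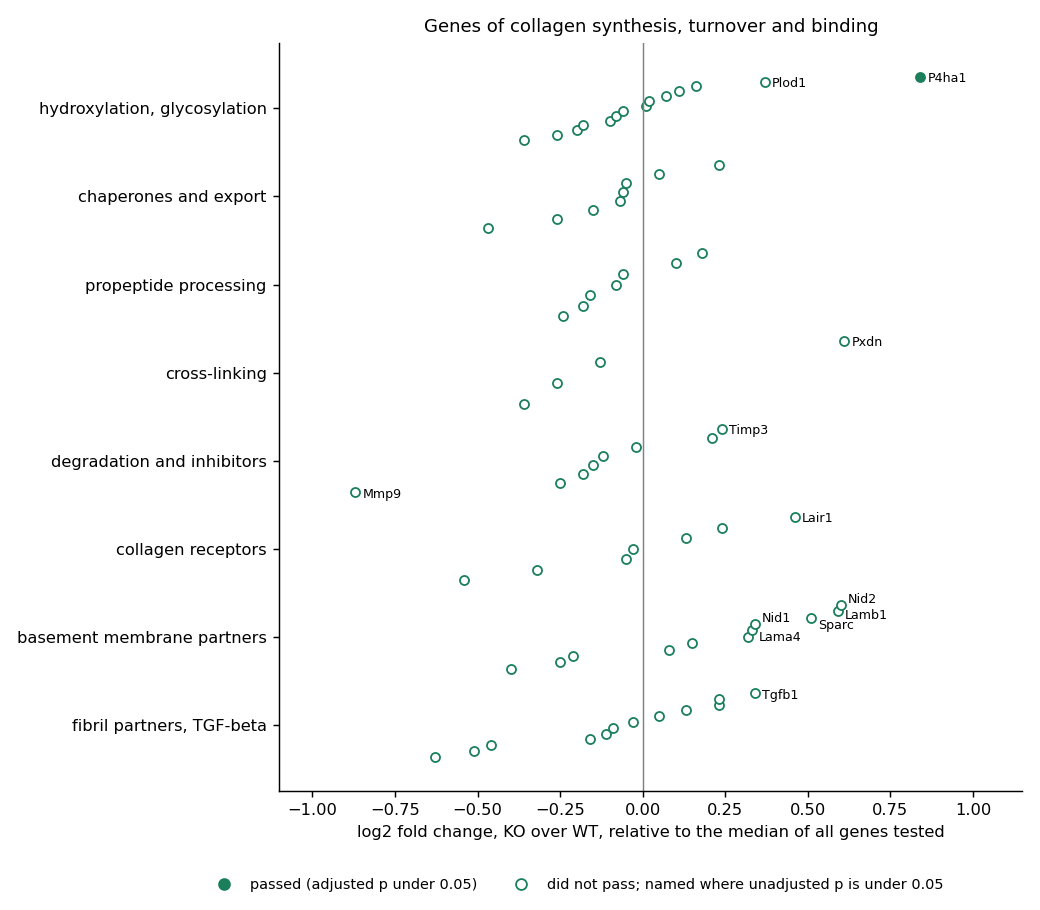
Relative log2 fold change of KO over WT for the 71 tested genes of 8 lists of collagen synthesis, turnover and binding, 1 point a gene. P4ha1 is the filled point at 0.84, and genes with an unadjusted p under 0.05 are named, 5 of them in the list of basement membrane partners.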

How the data were processed

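Tibialis anterior RNA of 4 KO and 4 WT libraries was read, per the labels, with an Ion AmpliSeq panel covering the mouse transcriptome. The authors deposited RPM (reads per 1000000) for 23930 genes; the Transcriptome Analysis Console is named in the submitters' processing notes, while aligner, build and strandedness are not given in the sources used. All values (100% within 0.05 reads) were whole reads, which gave library totals and recovered reads. On those reads, edgeR 4.0.16 called 92 genes, against 89 in the limma test. Every 2 libraries of a group differed beyond sampling noise (chi-square over its degrees of freedom 8.02 or more).

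Genes with at least 1 RPM in 4 libraries entered limma 3.58.1 (R 4.3.3) as log2(RPM + 1) (variance trend, two-sided, Benjamini-Hochberg). Sdhc was tested by exact permutation (70 assignments). Alternatives were pseudocounts of 0.5 and 5, no filter, 5 RPM, TMM factors, edgeR, DESeq2 1.42.0, a replicate block, a term for Xist above 10 RPM, only the 6 libraries under 10 RPM, and omission of each library; omission of KO 3 with WT 3 was added after the data were seen. The collagens, gene lists, markers and tests were chosen with earlier results of these data known. Every tested collagen was named. Values by library were given for those with an unadjusted p under 0.05. They were also given for up to 4 of highest mean in each of 4 classes. From the 8 pathway lists, the genes of smallest p and highest level were named, Ctgf only by its range with 1 library left out. Nid1, Lama4, Lamb2, Lama2, Lama5, Cdh5 and Esam were named after their values were seen. Of 83 listed pathway genes, 81 were in the table; Loxl2 and Itga10 are not analysed here. The steps were tested on simulated data. Locations are from GENCODE M21 (GRCm38), which matched 44 of 44 symbols, and promoters from RefSeq (GRCm38.p6). Figures were drawn with matplotlib 3.10.9.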

Additional observations from a re-analysis of the deposited data

Results flagged for a closer look

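In 10 of 154 groups of 4 values (6.49%; chance gives about 1 in 20, 5%) 1 library lay far from the other 3, its gap to the nearest being over 0.829 of the group's range. Among the collagens, Col4a4 in KO 3 had 2.68 RPM, with 0.821 to 1.05 RPM in the rest of KO (gap 0.878 of the range). Col6a2 in KO 4 had 34.1 RPM, against 26.4 to 27.6 RPM (0.842), and Col13a1 in WT 2 had 2.84 RPM, with 1.41 to 1.62 RPM in the rest of WT (0.854). Among the genes around them, the laminin Lamb1 in KO 3 had 25.7 RPM, against 17.7 to 18.7 RPM (0.883). The collagen receptor Ddr1 stood apart in both groups, with 8.71 RPM in KO 1 against 4.64 to 5.24 RPM (0.853) and 7.13 RPM in WT 3 against 8.04 to 8.18 RPM (0.864). WT 2 stood apart in 4 more genes: Dcn at 845 RPM against 649.9 to 672 RPM (0.888), Lair1 at 1.84 RPM against 0.486 to 0.570 RPM (0.938), Lox at 10.2 RPM against 9.55 to 9.59 RPM (0.941) and Timp4 at 24.5 RPM against 47.1 to 50.8 RPM (0.861).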

How the results depend on the processing

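Over all genes, 89 passed, against 59 with no filter, 240 in DESeq2, 235 with a term for Xist, 392 in the 6 libraries without Xist, 16 to 263 when 1 library was left out, and 9 without KO 3 and WT 3 (chosen after the data were seen). Collagens passing as higher numbered 0, and 1 with a term for Xist (Col4a1). Collagens passing as lower numbered 1, against 0 with no filter, 3 in DESeq2, 2 in the libraries without Xist, 0 to 1 when 1 library was left out, and 0 without KO 3 and WT 3. The replicate numbers do not pair the libraries (correlations of same-numbered deviations -0.121 to 0.079); with them as a replicate block 81 genes passed and 0 collagens as lower, Col22a1 having an adjusted p of 0.0629. The Sdhc difference and the summed levels of the 4 main classes were rerun only with TMM factors and with 1 library left out. The Sdhc difference stayed between -711 and -637 RPM. The class differences moved by less than the spread between libraries. That of the fibrillar class, 12.0 RPM in the main run, changed sign with TMM factors (-33.3 RPM). It also did so without KO 3 (-17.2 RPM), KO 4 (-28.1 RPM) or WT 3 (-2.60 RPM). The other main classes kept their sign. Of the single-gene values under alternatives, 1058 kept their direction and side of the threshold, 16 no longer passed, 13 newly passed and 56 changed sign; the causes were not tested. The values that changed sign, on the relative log2 scale, were, in the libraries without Xist, Col18a1 at 0.04, Col4a4 at 0.04, Col5a3 at 0.32, Col6a6 at -0.11, Dcn at -0.04, Itgb1 at 0.0017 and Tmem38b at 0.05. Without KO 3 and WT 3 they were Col5a2 at -0.04, Col6a1 at -0.0085, Col6a3 at -0.05, Dcn at -0.04, Serpinh1 at -0.03 and Tll1 at -0.03. With other settings they were Col4a4 at 0.01 (pseudocount 0.5), 0.04 (TMM factors) and 0.14 (edgeR), Col6a6 at -0.04 (pseudocount 5), -0.06 (edgeR) and -0.05 (DESeq2), and Tll1 at -0.02 (pseudocount 5). With 1 library left out the ranges that crossed 0 were Col14a1 -0.37 to 0.02, Col18a1 -0.15 to 0.02, Col1a2 -0.22 to 0.13, Col20a1 -0.06 to 0.14, Col23a1 -0.25 to 0.02, Col4a4 -0.08 to 0.07, Col5a3 -0.26 to 0.15, Col6a2 -0.15 to 0.07, Col6a6 -0.31 to 0.23, Adamts2 -0.17 to 0.05, Ctgf -0.02 to 0.28, Dcn -0.05 to 0.19, Hspg2 -0.05 to 0.18, Mia3 -0.36 to 0.0023, Serpinh1 -0.06 to 0.18, Timp4 -0.04 to 0.34, Tll1 -0.07 to 0.18 and Tmem38b -0.22 to 0.02. Depth limits the 16 untested collagens and those under about 5 RPM, which rest on few reads.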

Other observations

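Marker lists of further cell types were read in the same way. Macrophage markers summed to 105 ± 20.5 RPM in KO and 84.9 ± 27.6 RPM in WT (SD, n = 4 each); among 6 tested, Cd68, a lysosomal protein of macrophages, rose, with 7.39, 13.8, 7.85 and 10.7 RPM in KO against 3.95, 4.34, 2.71 and 4.70 RPM in WT (a relative log2 fold change of 1.01, limma adjusted p = 0.0192). The other 5 tested macrophage markers did not pass, and Adgre1, which codes for F4/80, stood at -0.16 (adjusted p = 0.963). Schwann cell markers summed to 30.9 ± 5.99 RPM in KO and 34.4 ± 3.31 RPM in WT, and 0 of 4 tested passed in limma or edgeR. Cartilage and bone markers summed to 6.91 ± 2.89 RPM in KO and 4.38 ± 0.989 RPM in WT, nearly all of it Sox9, which tendon and other cells also express. Fat cell markers varied between libraries, from 6.60 to 38.9 RPM in KO and from 6.15 to 33.4 RPM in WT. Markers of pericytes and smooth muscle were led by Acta2 (6530.1 RPM in KO and 8778.7 RPM in WT), whose reads cannot be kept apart with certainty from those of the near-identical muscle actin Acta1 (15663 RPM in KO and 22652.5 RPM in WT). Of the other 8 in that list, 0 passed in limma or edgeR, and 1 (Notch3) had an unadjusted p under 0.05.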
